A study of Rattus norvegicus with 6 samples.

Results

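Expression of 46 DNA repair genes was examined in mammary tumors that a chemical carcinogen had induced in rats. The genes and gene lists were chosen by name, with earlier results of these data known. The 46 genes are members of homologous recombination, the Fanconi anemia pathway, damage signaling, nucleotide and base excision repair, mismatch repair, direct reversal and translesion synthesis. The count table has 30562 rows, 26195 of them with a gene name, and 45 of the 46 symbols matched 1 row each. Expression of Rad51d was not analysed here. Progestin and carcinogen were given to both age groups alike. Every F344 rat carried a 50 mg pellet of medroxyprogesterone acetate (MPA), a progestin released over 90 days, and received 7,12-dimethylbenz[a]anthracene (DMBA) by a single gavage at 65 mg per kg. The older group held 3 tumors (numbers 102, 107 and 116) from rats that were 19 to 21 months old when obtained, and the younger group 3 tumors (157, 158 and 167) from rats bought at 6 to 8 weeks. All rats were female and were housed in the facility for months before any treatment, so DMBA was given at later ages than these. F344 is an inbred strain, the younger tumors were all that the younger rats had formed, and the older ones were those with enough frozen tissue. Each tumor gave 1 bulk RNA-seq library without a technical replicate, so p-values measure the spread between these tumors. The labels number tumors and not rats. For exome sequencing of the same group of tumors, the paper counts 3 older and 3 younger rats.

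DMBA is converted in the body to a reactive epoxide that binds purine bases and leaves bulky adducts on DNA. Nucleotide excision repair cuts such adducts out, and translesion polymerases copy past those that remain when a replication fork arrives. Forks that stall or break are handled by homologous recombination and the Fanconi anemia proteins under the control of the kinases Atm and Atr. Many genes of these fork-linked pathways are transcribed mainly when cells enter S phase. Many nucleotide excision repair genes are known instead for steady transcription in resting and dividing cells alike.

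Totals over the named genes ran from 3394451 counts in tumor 102 to 6383983 in tumor 158, and 3 counts corresponded to 0.47 to 0.884 CPM (counts scaled to a common library total). CPM values below were additionally scaled with TMM factors and are given in the order 102, 107 and 116 for older and 157, 158 and 167 for younger tumors. Levels are compared for the same gene between tumors only, since counts also grow with gene length. Markers of epithelial cells were present in every library, with a summed level of 1603 to 1749.8 CPM over 9 genes in older and 2072 to 2310.5 CPM in younger tumors. Tumor 102 stood apart from the others. It was the lowest of the 6 tumors for 27.3% of the 13139 genes that passed the filter on low counts and the highest for 25.7%. In bulk tissue, fewer cells of a kind and less RNA per cell cannot be told apart.

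Between older and younger tumors, no difference in expression passed the adjusted threshold for any of the 45 repair genes, with 3 tumors in each group. All 45 passed the filter on low counts, and 0 had an adjusted p under 0.05 in edgeR's quasi-likelihood test, as was the case for 0% of all genes tested. An unadjusted p under 0.05 was found for 0 of the 45, against 8.59% of all genes tested (5.3% higher and 3.29% lower in older tumors). DESeq2's Wald test also passed 0 of the 45 (background 2.49%) and limma-voom 0, with 0 and 1 genes at an unadjusted p under 0.05. Adjusted p-values ran from 0.605 (Rev3l) to 0.998 (Exo1). Going by direction alone, 20 genes were higher and 25 lower in older tumors (50.4% of all genes tested were lower), and without tumor 102 the split was 31 and 14. The median log2 fold change was -0.03 for the repair genes and -0.00387 for all genes tested, and without tumor 102 it was 0.13 for the repair genes.

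For part of the genes the data also bounded the size of a difference. In 22 of 45 repair genes the 95% interval of the log2 fold change lay between -1 and 1, that is, within a 2-fold change in either direction, against 37.4% of all genes tested. Nucleotide excision repair held 6 of these, homologous recombination 5 and base excision repair 4. The narrowest interval belonged to Ercc3, a helicase of the transcription and repair factor TFIIH, at -0.54 to 0.47. Exo1, a nuclease of recombination and mismatch repair, had the widest at -2.40 to 2.35, past a 2-fold change on both sides. The plot of fold changes shows these intervals for every gene.

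**Figure D1:**
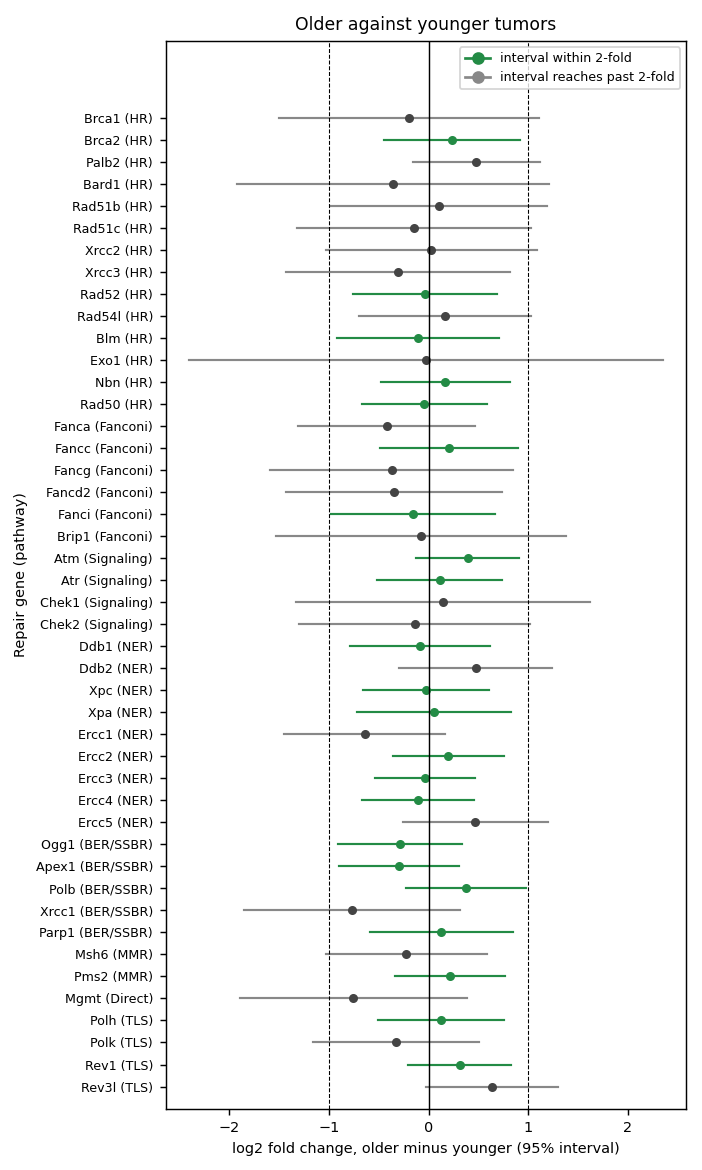
Log2 fold change of each of the 45 repair genes, older minus younger tumors (3 against 3), on the horizontal axis, with one line per gene ordered by pathway; points are edgeR estimates, bars their 95% intervals, and dashed lines mark a 2-fold change. All intervals include 0, the 22 green ones lie within a 2-fold change, and the interval of Exo1 is the widest.

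The repair genes known for expression in S phase set older tumor 102 apart from the other 5 tumors. Of 12 such genes (Brca1, Brca2, Bard1, Rad54l, Blm, Exo1, Fanca, Fancd2, Fanci, Brip1, Chek1 and Msh6), 10 had their lowest value in tumor 102, against 27.3% of all genes tested and 9 of the 33 other repair genes. The median of these 12 genes in tumor 102 was 0.449 times the median of the other 5 tumors, against 0.938 times for the other repair genes. Their mean log2 CPM by tumor was 3.36, 4.71 and 5.37 in older tumors and 5.18, 4.67 and 4.72 in younger ones. The older group therefore averaged 4.48 ± 1.03 and the younger 4.86 ± 0.28 (SD, n = 3 each), a difference of -0.38 that became 0.19 without tumor 102. Tumors 116 and 157 held the highest values for 7 and 5 of the 12 genes, and these tumors are of different age groups.

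Proliferation genes were lowest in the same tumor. Of 20 genes such as Mki67, Top2a and the Mcm helicase subunits, 19 were lowest in tumor 102, and their mean log2 CPM was 3.995, 5.71 and 6.19 in older tumors and 6.29, 5.68 and 5.59 in younger ones. The mean over the 33 repair genes outside the S phase list ran from 4.72 (tumor 102) to 4.98 (tumor 116), with single genes going both ways in tumor 102. On the log2 scale, Fancg differed there from the median of the other 5 tumors by -1.58, Rad51c by -1.26 and Chek2 by -1.07, and Ddb2 by 0.81. The part of dividing cells in the S phase gene values was not tested. Tumor 102 also carried the highest summed level of adipocyte markers, 175 CPM against 6.15 to 18 CPM in younger tumors and 19.9 and 33.5 CPM in older tumors 116 and 107, while its epithelial markers lay within the range of the other older tumors. Its fibroblast markers were also the highest, at 1434 CPM over 7 genes, and its myoepithelial markers the lowest, at 428 CPM over 5 genes. Their part in the S phase gene values was not tested either.

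**Figure D2:**
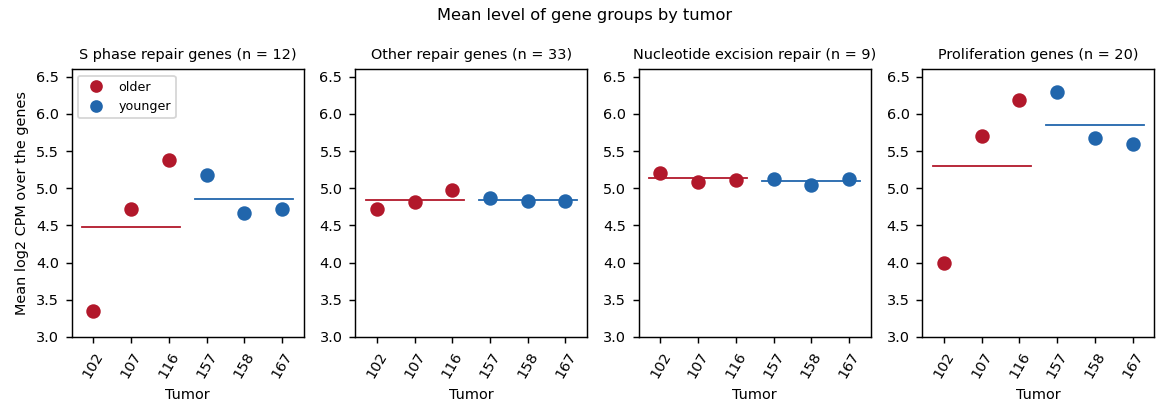
Mean log2 CPM by tumor (horizontal axis, tumor number) for 12 S phase repair genes, the 33 other repair genes, the 9 nucleotide excision repair genes among these, and 20 proliferation genes; red points are older and blue points younger tumors, and lines are group means. Tumor 102 sits at 3.36 in the first panel and 3.995 in the last, below every other tumor, while nucleotide excision repair stays between 5.04 and 5.21.

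Brca1 and Bard1 pair to form a ubiquitin ligase that takes part in recombination. Brca1 was at 9.64, 30.2 and 54.7 CPM in older tumors and 48.8, 28.4 and 31.8 CPM in younger ones. Bard1 was at 3.10, 18 and 29.2 CPM in older tumors and 30.4, 15.9 and 18.8 CPM in younger ones, which rests on 9 counts in tumor 102 and 76 to 172 counts in the others. Both were lowest in tumor 102, and the remaining older tumors lay inside the younger range, except tumor 116, which was above it for Brca1. Exo1 had 0 counts in tumor 102 against 33 to 101 counts in the others, and 3 counts in that library would be 0.884 CPM before TMM scaling. Brip1, a helicase that binds Brca1, was at 3.79, 24.1 and 32.2 CPM in older tumors and 21.6, 21.3 and 21 CPM in younger ones. Chek1, the kinase through which Atr holds the cell cycle at stalled forks, was at 3.44, 14.3 and 28.2 CPM in older tumors and 16.6, 12.8 and 12.6 CPM in younger ones, with the highest value in older tumor 116 and the lowest in older tumor 102. Group differences were small beside this spread: log2 fold changes were -0.20 with a standard error of 0.56 (adjusted p = 0.968) for Brca1 and -0.36 with a standard error of 0.67 (adjusted p = 0.944) for Bard1 in edgeR's test. Without tumor 102 they were 0.22 and 0.12.

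Promoter sequences of GRCr8 from RefSeq, 250 bases before to 50 after the annotated start, were found for 39 of the 46 genes, 36 of them with 1 promoter. An E2F-type word (TTTCCCGC, TTTGGCGC or TTTCGCGC, on either strand), the kind of site that S phase transcription factors bind, was found in 8 of these 36 promoters (22.2%), against 3.5% of 9551 promoters of tested genes and 1.72% of all 33469 promoters of the same length. Of the S phase genes, 4 of 11 held one (Bard1, Fancd2, Chek1 and Msh6), and of the other repair genes 4 of 25 (Rad51d, Fancc, Atm and Polk). The 4 promoters of the S phase genes are shown because these genes had their lowest values in tumor 102 and hold the word. A link between the word and the values in tumor 102 was therefore not tested. Of the other holders measured, Atm was highest in tumor 102, Fancc was not lowest there and Polk was lowest there. The shorter CHR element (TTTGAA), tied to expression in later cell cycle phases, was in 6 of 36 (16.7%) against 11.9% of promoters of tested genes, and the CCAAT box (CCAAT) in 38.9% against 37.7%. Each of the following runs covers 220 bases before to 30 after the start, from 5′ to 3′ on the gene's strand, with the E2F-type word in capitals. Their positions on GRCr8 are chr9:80143726-80143975 (minus strand) for Bard1, chr4:148234488-148234737 (plus strand) for Fancd2, chr8:44629814-44630063 (minus strand) for Chek1 and chr6:12333476-12333725 (minus strand) for Msh6.
Bard1: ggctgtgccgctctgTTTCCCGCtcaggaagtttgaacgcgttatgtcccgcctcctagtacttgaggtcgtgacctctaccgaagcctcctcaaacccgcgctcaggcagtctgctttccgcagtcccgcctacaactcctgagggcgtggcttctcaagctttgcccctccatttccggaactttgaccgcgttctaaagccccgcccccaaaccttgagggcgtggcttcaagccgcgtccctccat
Fancd2: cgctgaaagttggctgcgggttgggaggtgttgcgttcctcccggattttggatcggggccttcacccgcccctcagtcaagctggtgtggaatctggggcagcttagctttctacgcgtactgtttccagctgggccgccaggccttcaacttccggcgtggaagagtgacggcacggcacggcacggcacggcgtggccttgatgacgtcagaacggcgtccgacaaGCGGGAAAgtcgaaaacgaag
Chek1: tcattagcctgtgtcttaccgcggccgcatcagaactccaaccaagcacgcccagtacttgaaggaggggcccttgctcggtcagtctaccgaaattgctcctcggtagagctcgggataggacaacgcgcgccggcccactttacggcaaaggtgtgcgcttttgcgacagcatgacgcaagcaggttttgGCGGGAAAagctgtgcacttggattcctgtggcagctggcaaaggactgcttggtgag
Msh6: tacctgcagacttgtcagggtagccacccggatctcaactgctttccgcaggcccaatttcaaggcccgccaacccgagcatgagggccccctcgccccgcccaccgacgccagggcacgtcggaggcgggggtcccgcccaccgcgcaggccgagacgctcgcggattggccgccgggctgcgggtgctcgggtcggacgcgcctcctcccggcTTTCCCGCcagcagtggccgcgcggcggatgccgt

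Counted from the annotated start, the first capital stood at -205 in Bard1, -28 in Chek1, -5 in Msh6 and 10 in Fancd2, with negative positions before the start. A match is a description of letters and not a bound site, and Brca1, Exo1 and Brip1, which were among the lowest in tumor 102, held none of these words in their windows.

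Homologous recombination copies an intact sister strand to mend a broken one, and 14 of its 15 listed genes were measured. In older tumors 6 were higher and 8 lower by sign, with a median log2 fold change of -0.03 that became 0.21 without tumor 102. Brca2, a tumor suppressor that acts in strand exchange, was at 65.1, 58.6 and 93.7 CPM in older tumors and 60.5, 46.5 and 78 CPM in younger ones. Unlike Brca1, it was not lowest in tumor 102, and its highest value was in tumor 116. Rad50, the coiled-coil subunit of the complex that senses broken ends, was at 78.8, 91.8 and 92.5 CPM in older tumors and 92.1, 63.5 and 116 CPM in younger ones. Nbn, its partner in that complex, was at 55.4, 46.1 and 56.5 CPM in older tumors and 41.7, 36.5 and 62.7 CPM in younger ones. Both were highest in younger tumor 167 and lowest in younger tumor 158, and all older values lay inside the younger range. Rad52, an annealing protein, was at 18.9, 18.4 and 24 CPM in older tumors and 24, 14.8 and 24.2 CPM in younger ones. Blm, the helicase mutated in Bloom syndrome, was at 21.7, 28.2 and 39.4 CPM in older tumors and 44.4, 23.2 and 28.9 CPM in younger ones. For all 5 of these genes the interval of the fold change stayed within 2-fold.

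Of the remaining recombination genes, several gave few counts. Rad51b, Rad51c and Xrcc2 lay between 2.41 and 14 CPM and were each lowest in tumor 102 and highest in tumor 116. Xrcc3 behaved differently among tumors, at 13.1, 7.05 and 10.4 CPM in older tumors and 16.3, 15.6 and 5.68 CPM in younger ones, with its lowest value in younger tumor 167. Rad54l, a DNA translocase, was at 12 to 24.2 CPM with both ends of the range in older tumors. Log2 fold changes of these 5 genes ran from -0.31 (Xrcc3) to 0.16 (Rad54l).

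The Fanconi anemia genes, whose products unlock crosslinked and stalled forks, were, of the 8 pathways, the furthest below the other tumors in tumor 102, with 5 of 6 genes at their minimum there and a median of 0.449 times the other 5 tumors. Their median log2 fold change of -0.25 in older tumors became 0.03 without that tumor. Fanca, Fancd2, Fanci and Brip1 are also on the S phase list, so this low level in tumor 102 is not separate from the one described above. For 10 further Fanconi genes outside the 46, the median in tumor 102 was 0.773 times the other 5 tumors. Fancd2, a subunit of the clamp that the pathway loads, was at 17.6, 38 and 59.1 CPM in older tumors and 70.2, 38.7 and 37.5 CPM in younger ones. Fanci, its partner, was at 30.3, 39.5 and 71.9 CPM in older tumors and 62.6, 49.8 and 46.4 CPM in younger ones. Both peaked in older tumor 116 or younger tumor 157, and the groups overlapped. Of the core complex genes, Fanca ran from 12.4 CPM in tumor 102 to 37.1 CPM in tumor 157 and Fancg from 3.79 to 14.1 CPM. Fancc, the third core gene, was not lowest in tumor 102 and was at 16.9, 15.2 and 17.4 CPM in older tumors and 17, 11.4 and 14.6 CPM in younger ones.

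Of the 4 damage signaling kinases, the effectors Chek1 and Chek2 were lowest in tumor 102 and highest in tumor 116, as were many S phase genes, and the upstream kinases Atm and Atr were not. Atm, which responds to broken ends, was at 202, 175 and 183 CPM in older tumors and 136, 126 and 165 CPM in younger ones. All older tumors lay above all younger ones, at a log2 fold change of 0.39 with a standard error of 0.22 (adjusted p = 0.732) in edgeR's test and an interval of -0.12 to 0.91. Atr, which responds to single-stranded DNA at forks, was at 97.1, 64.1 and 90.1 CPM in older tumors and 73.7, 62.1 and 97 CPM in younger ones, with overlapping groups. Chek2 ran from 5.16 CPM in tumor 102 to 19.2 CPM in tumor 116. The median log2 fold change of the 4 genes was 0.13, and -0.30 without tumor 116.

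**Figure D3:**
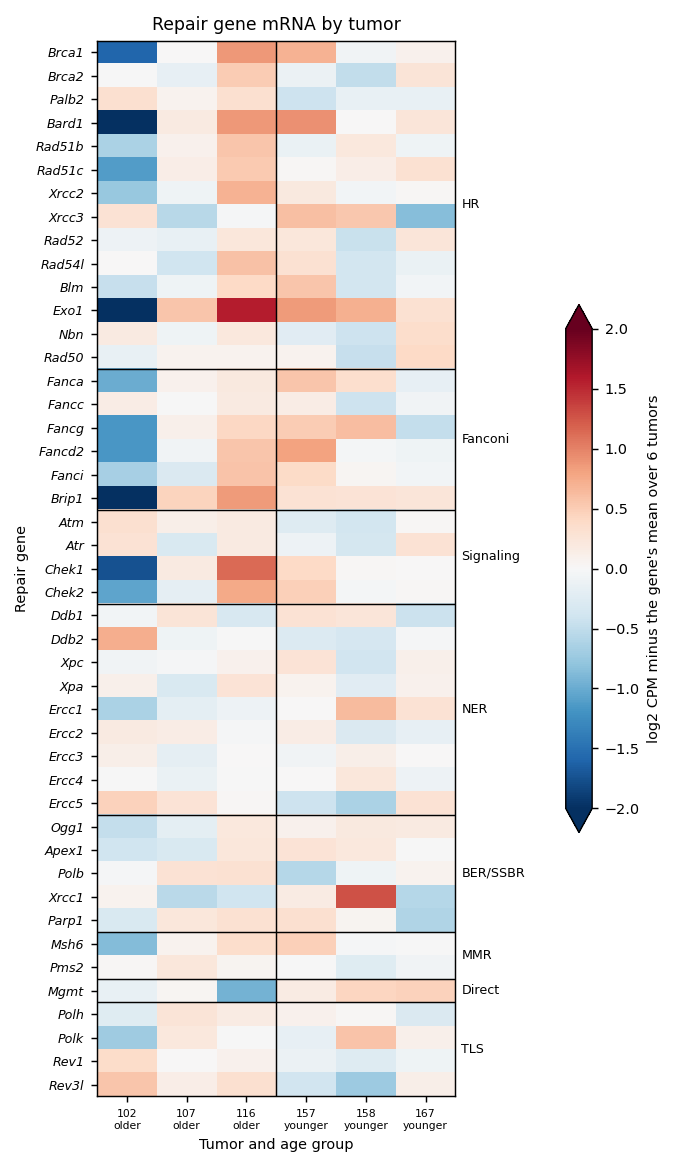
Repair gene expression in each tumor as log2 CPM minus the gene's own mean over the 6 tumors (colour scale, cut at -2 and 2), with genes in rows by pathway and tumors in columns by age group; HR stands for homologous recombination, NER for nucleotide excision repair, BER/SSBR for base excision and single-strand break repair, MMR for mismatch repair and TLS for translesion synthesis. The dark blue cells of tumor 102 lie mostly in recombination, Fanconi and signaling genes, and the nucleotide excision rows are pale.

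Nucleotide excision repair, the pathway that removes bulky adducts of the kind DMBA leaves, varied least between tumors of one age group among the 8 pathways. Its mean log2 CPM was 5.21, 5.09 and 5.11 in older tumors and 5.12, 5.04 and 5.12 in younger ones, its median log2 fold change was -0.02, and the median spread within age groups was 0.24 on the log2 scale (SD), against 0.44 for all genes tested and 0.62 for the S phase repair genes. Base excision repair, at 0.27, translesion synthesis, at 0.29, and mismatch repair, at 0.30, were close to nucleotide excision repair. Of the 9 nucleotide excision genes, 4 were higher and 5 lower in older tumors by sign. Ddb1, an adaptor of the ubiquitin ligase that marks damaged sites, was at 368, 457 and 306 CPM in older tumors and 464, 452 and 283 CPM in younger ones. Ercc3 was at 58.2, 47.5 and 54.1 CPM in older tumors and 51.4, 58.1 and 54.1 CPM in younger ones, within 1.22 times from lowest to highest tumor. Ercc2, the other helicase of TFIIH, was at 43.4, 42.7 and 37.6 CPM in older tumors and 42.4, 31.3 and 34.1 CPM in younger ones. None of these 3 genes separated the age groups. Xpc, which finds distorted DNA, was at 25.5, 26.4 and 28.2 CPM in older tumors and 32.4, 20.4 and 28.6 CPM in younger ones. Xpa, which checks the lesion before incision, was at 12.4, 9.32 and 14 CPM in older tumors and 12.2, 9.77 and 12.3 CPM in younger ones. Ercc4, the nuclease that cuts upstream of the lesion, was at 27.2, 24.8 and 27.2 CPM in older tumors and 27.6, 32 and 25.4 CPM in younger ones.

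Ercc1 is the partner that Ercc4 needs for cutting. It was at 7.23, 10.001 and 10.6 CPM in older tumors and 11.5, 18.1 and 14.1 CPM in younger ones, on 21 to 100 counts. All older tumors lay below all younger ones, at a log2 fold change of -0.64 with a standard error of 0.35 (adjusted p = 0.715) in edgeR's test. The interval of -1.45 to 0.17 included 0. In the RefSeq gene list of GRCr8 Ercc1 shares bases with Polr1g, and as the strand setting of the counting is not given in the sources used here, reads of overlapping genes cannot be told apart. Such overlaps with another annotated gene concerned 26 of the 46 repair genes. Ercc5, which cuts downstream, and Ddb2, the damage sensor that works with Ddb1, had the same log2 fold change of 0.47 with overlapping groups. Ercc5 ranged from 28.2 to 61.3 CPM and Ddb2 from 14.5 to 30.6 CPM, each lowest in tumor 158 and highest in tumor 102. Without tumor 102 the log2 fold change was 0.16 for Ddb2 and 0.36 for Ercc5, and without tumor 167 that of Ercc5 was 0.79.

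Base excision repair replaces small damaged bases and seals single-strand breaks, and 5 of its genes were measured, 2 higher and 3 lower in older tumors by sign. Ogg1, the glycosylase for oxidized guanine, was at 21, 25.5 and 34 CPM in older tumors and 31.1, 33.8 and 33.3 CPM in younger ones. Apex1, which cuts the backbone at the emptied site, was at 39.9, 42.5 and 62.1 CPM in older tumors and 64, 61.1 and 52.6 CPM in younger ones. Both were lowest in older tumors 102 and 107 and overlapped through tumor 116. Polb, the polymerase that fills the gap, was at 57.8, 71.8 and 72.5 CPM in older tumors and 39.1, 55.2 and 61.7 CPM in younger ones. Parp1, which senses strand breaks, was at 52, 75.2 and 79.5 CPM in older tumors and 80.4, 66.4 and 42.2 CPM in younger ones. Their intervals lay within a 2-fold change. The scaffold Xrcc1 was the exception, at 55.4, 36.1 and 40.2 CPM in older tumors and 59.2, 129 and 35.5 CPM in younger ones. Younger tumor 158 alone was more than 2-fold above every other tumor, and the log2 fold change of -0.77, the largest in size among the repair genes, became -0.11 without it.

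For mismatch repair, which corrects copying errors, 2 genes were measured. Msh6, a subunit of the mismatch sensor, was at 29.95, 58 and 70.1 CPM in older tumors and 76.2, 53.7 and 54.8 CPM in younger ones, and was on the S phase list. Pms2, a subunit of the nuclease that follows, was at 28.6, 33 and 29.2 CPM in older tumors and 27.8, 23.7 and 26.7 CPM in younger ones. Older tumors were all above younger ones for Pms2 by a narrow margin, 28.6 against 27.8 CPM at the nearest tumors, and the log2 fold change was 0.22 with a standard error of 0.24 (adjusted p = 0.9) in edgeR's test.

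Mgmt, which removes alkyl groups from guanine by direct transfer to itself, had the fewest counts of the 45 genes. It gave 8, 14 and 7 counts in older and 20, 24 and 18 counts in younger tumors, or 2.75, 3.18 and 1.40 CPM in older tumors and 3.54, 4.34 and 4.44 CPM in younger ones. All older tumors were below all younger ones. The log2 fold change was -0.75 with a standard error of 0.49 (adjusted p = 0.783) in edgeR's test, with an interval of -1.89 to 0.39, which includes 0 and reaches past a 2-fold decrease.

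Translesion synthesis, in which specialised polymerases copy past damaged bases, had a median log2 fold change of 0.22 in older tumors, with 3 of 4 genes higher by sign. Rev3l, the catalytic subunit of polymerase zeta that extends from bypassed lesions, was at 254, 190.01 and 215 CPM in older tumors and 133, 104 and 187 CPM in younger ones. Means were 219.7 ± 32.1 CPM in older and 141 ± 42.3 CPM in younger tumors (SD, n = 3 each). The groups did not overlap, but younger tumor 167 lay just under older tumor 107, and the log2 fold change was 0.64 with a standard error of 0.28 (adjusted p = 0.605), with an interval of -0.03 to 1.30. Its unadjusted p of 0.0576 was the smallest of the 45 genes in edgeR's test. Rev1, the scaffold that recruits the other translesion polymerases, was at 80.2, 62.1 and 65.7 CPM in older tumors and 57.3, 51.7 and 58.5 CPM in younger ones. The groups did not overlap for Rev1 either, at a log2 fold change of 0.31 with a standard error of 0.22 (adjusted p = 0.81) in edgeR's test. Polh, which copies past bulky and ultraviolet lesions, was at 20.3, 29.1 and 27 CPM in older tumors and 25.8, 24.6 and 19.7 CPM in younger ones, with overlapping groups. Polk, the polymerase known for bypass of polycyclic hydrocarbon adducts, ran from 11 CPM in tumor 102 to 27.3 CPM in tumor 158, at a log2 fold change of -0.32 that became -0.11 without tumor 102 and -0.08 without tumor 158.

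Counted over all pathways, 7 of the 45 genes had age groups that did not overlap, against a background of 12.1% of all genes tested. All older tumors were above all younger ones for 5 (Palb2, Atm, Pms2, Rev1 and Rev3l, background 6.51%) and below them for 2 (Ercc1 and Mgmt, background 5.58%). Palb2, the bridge between Brca1 and Brca2, was at 21, 17.7 and 21 CPM in older tumors and 12.6, 15.2 and 15.1 CPM in younger ones, at a log2 fold change of 0.48 with a standard error of 0.28 (adjusted p = 0.741) in edgeR's test. The count above depended on scaling: with library totals in place of TMM it was 1 (Palb2, background 5.27%). With a tumor left out, groups separate more often among all genes too. The count above was 8 without tumor 102 (background 9.81%) and 9 without tumor 167 (background 13.9%), and the count below was 7 without tumor 116 (background 13.8%) and 7 without tumor 167 (background 12.1%). At this group size the exact two-sided permutation p of one gene cannot fall below 0.1.

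**Figure D4:**
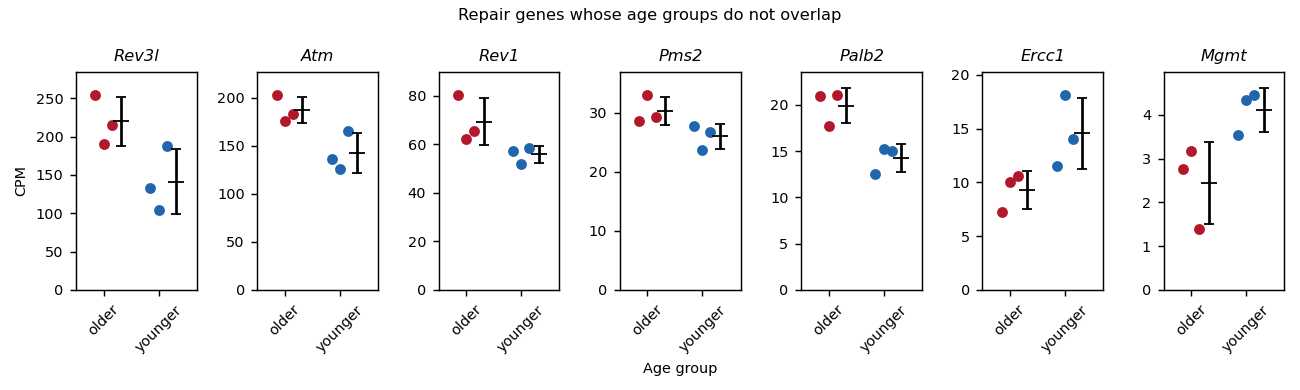
CPM (vertical axis, from 0) of the 7 repair genes whose age groups do not overlap, with one panel per gene; red points are the 3 older and blue points the 3 younger tumors, and bars give the mean and SD of each group. Rev3l, Atm, Rev1, Pms2 and Palb2 are higher and Ercc1 and Mgmt lower in every older tumor, and for Rev3l the nearest tumors are at 190.01 and 187 CPM.

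Marker levels of other cell types are given beside these values. In edgeR's test 0 macrophage, T cell, B cell or epithelial markers passed the adjusted threshold. Of 9 macrophage genes, 9 were higher in older tumors by sign (6523 of all 13139 genes tested were higher). An unadjusted p under 0.05 was found for 5 of them (background 5.3%), and their smallest adjusted p was 0.342. Their summed level was 265 to 506 CPM in older and 134 to 191 CPM in younger tumors. Over 6 T cell genes with a row, of which 2 were tested, it was 16.8 to 86.4 and 5.23 to 8.63 CPM. The top of the older range came mostly from Cd8a, at 10.3, 74.6 and 6.81 CPM in older tumors. In younger tumors Cd8a was at 4.60, 2.35 and 2.47 CPM. Cd3e, the other tested gene, was also higher in every older tumor. Of the genes not tested, Cd3d, Cd3g and Cd5 overlapped between the groups and Cd2 did not. Over 6 B cell genes, of which 2 were tested, the summed level was 25.8 to 45.9 CPM in older and 3.87 to 7.21 CPM in younger tumors. This sum was carried mostly by Ighm and Jchain, with the defining markers Ms4a1 and Cd79b at 0 in every tumor. Of the 9 epithelial markers, 9 were lower in older tumors by sign (50.4% of all genes tested were lower). The part of cell makeup in the 7 genes was not tested.

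Repair genes outside the 46 gave a similar picture. Of 77 further genes of the same pathways and of end joining, 74 had a row and 72 were tested, of which 30 were higher and 42 lower in older tumors by sign and 0 passed the adjusted threshold in edgeR's test. A single one, Fancl, the ubiquitin ligase of the Fanconi pathway, had an unadjusted p under 0.05. Fancl was at 28.6, 22 and 26.4 CPM in older tumors and 10.3, 14.3 and 15.6 CPM in younger ones, with all older tumors above all younger ones at a log2 fold change of 0.94 with a standard error of 0.30 (adjusted p = 0.391). Among 21 tested genes of break repair, 16 were lowest in tumor 102, beside 7 of the 14 recombination genes above and 27.3% of all genes tested. Of the further genes of other pathways, 7 of 16 base excision and 5 of 10 Fanconi genes were lowest there. The same held for 4 of 10 mismatch repair and translesion genes and 2 of 15 nucleotide excision genes. Of 14 p53 target genes, which respond to DNA damage in many cell types, 12 were lower in older tumors by sign, 3 of them at an unadjusted p under 0.05 (background 3.29%), and 0 passed the adjusted threshold.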

How the data were processed

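Per the labels and the study's methods, the authors depleted ribosomal RNA, checked reads with FastQC 0.11.7, trimmed them with Trimmomatic 0.38, aligned those of high quality with STAR 2.7.9a, marked duplicates with Picard 2.18.12 and counted reads per gene with HTSeq 0.13.5. The submitters' processing notes name the build mRatBN7.2. The annotation, the strand setting and the use of marked duplicates are not given in the sources used here. Sample labels give polyA RNA and 100 bases, the protocol depletion of ribosomal RNA and 150 bases. The deposited values are raw read counts, with 0 columns left unused and 2.17% to 3.64% of counts in 4367 rows without a gene name, which stayed out of library sizes and tests.

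Statistics were run with edgeR 4.0.16 under R 4.3.3. Genes were kept by filterByExpr with the age group (13139 of 26195 named rows), scaled by TMM and tested by glmQLFTest with Benjamini-Hochberg adjustment over all genes and a threshold of 0.05. Standard errors and 95% intervals were calculated from the F statistic, and log2 CPM used a prior count of 2. Levels of gene lists are means of log2 CPM, and levels of single genes in a group are means and SDs of CPM. Alternatives were DESeq2's size factors, library totals, DESeq2 1.42.0, limma-voom (3.58.1), 2 other count filters, omission of the 10 most abundant genes, equal depth, a prior count of 0.5, leaving out each tumor and, added after seeing the data, keeping the rows without a name. Scripts were tested on simulated data. Printed CPM values cover every gene whose groups did not overlap, whose interval lay within 2-fold or that had the most counts in its pathway, and others chosen after values were seen. The genes, lists and words searched were chosen with earlier results of these data known. Promoters came from RefSeq (GRCr8), another build than that of the counts. Precision of counts covers counting error only.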

Additional observations from a re-analysis of the deposited data

How the results depend on the processing

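No paired analysis was possible because older and younger tumors have no replicate number in common. The count of repair genes past the adjusted threshold was 0 under each of 9 other settings and in each of 6 fits that left out a tumor. At an unadjusted p under 0.05 it was 1 with limma-voom (Rev3l, against 6.76% of all genes tested), 1 at equal depth (Ercc1, against 8.63%) and 0 to 3 with a tumor left out, 3 being Ercc5, Xrcc1 and Rev3l without tumor 167 (against 8.28%). Genes with all older tumors above the younger ones numbered 1 with library totals (5.27% of all genes tested), 4 with every gene of at least 1 count (without Pms2, 5.93% of all) and 5 to 9 with a tumor left out (9.54% to 13.9% of all), and those below 1 with at least 10 counts in every tumor (Mgmt was then not tested, 5.19% of all) and 2 to 7 with a tumor left out (8.25% to 13.8% of all). Genes higher by sign ranged over 15 to 31 and lower over 14 to 30. The cause of these shifts was not tested. The median log2 fold change ranged over -0.18 to 0.13 for all 45 genes, -0.29 to 0.21 for recombination, -0.62 to 0.031 for Fanconi, -0.30 to 0.26 for signaling, -0.13 to 0.15 for mismatch repair and -0.053 to 0.10 for nucleotide excision repair. For translesion synthesis it was 0.15 with library totals and 0.18 to 0.26 with a tumor left out.

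Of single genes, 22 kept their sign under every setting run, and 23 changed it with a tumor left out. Their log2 fold changes ranged over these values: Atr from -0.023 to 0.30, Bard1 from -1.02 to 0.12, Blm from -0.37 to 0.19, Brca1 from -0.86 to 0.22, Brca2 from -0.00075 to 0.43, Brip1 from -0.59 to 0.40, Chek1 from -0.64 to 0.60, Chek2 from -0.75 to 0.20, Ddb1 from -0.29 to 0.041, Ercc3 from -0.11 to 0.036, Exo1 from -1.03 to 0.53, Fancd2 from -0.81 to 0.0027, Fanci from -0.60 to 0.072, Msh6 from -0.49 to 0.053, Parp1 from -0.095 to 0.34, Rad50 from -0.24 to 0.17, Rad51b from -0.25 to 0.35, Rad51c from -0.53 to 0.20, Rad52 from -0.23 to 0.070, Rad54l from -0.16 to 0.38, Xpa from -0.085 to 0.21, Xpc from -0.19 to 0.12 and Xrcc2 from -0.46 to 0.31. Of the genes that kept their sign, Xrcc3 ranged over -0.66 to -0.080, Polk over -0.53 to -0.084, Ddb2 over 0.16 to 0.62, Ercc5 over 0.29 to 0.79, Xrcc1 over -1.11 to -0.11, Mgmt over -1.02 to -0.46 and Rev1 over 0.19 to 0.38. Signs also changed with library totals for Exo1 (0.024) and Xpa (-0.012), with limma-voom for Xrcc2 (-0.020), Rad52 (0.015), Rad50 (1.9e-04), Chek1 (-0.12) and Xpc (0.012), and at equal depth for Rad51b (-0.058), Exo1 (0.14) and Xpc (0.028). Keeping the rows without a name, an alternative added after the data were seen, changed no direction and no count of calls. A prior count of 0.5 moved no pathway difference by more than its spread between tumors. Depth limits Mgmt, with 91 counts over all tumors, and Exo1, with 0 counts in tumor 102. That tumor had the lowest library total, and Bard1, Chek1, Brip1, Fancg, Rad51b and Rad51c had 7 to 11 counts in it.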
